A study of Arabidopsis thaliana with 6 samples.

Results

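GH3.3 (AT2G23170) and WES1 (AT4G27260, also known as GH3.5) encode enzymes of the GH3 family that join the auxin indole-3-acetic acid to amino acids. Both genes were taken by their RefSeq symbols from probe sets that list a single gene. Each had 1 probe set, so the description rests on 2 of the 22746 probe sets tested, or 2 of 13286 genes with a named probe set. Whole Arabidopsis seedlings of the Col-0 background were profiled on Affymetrix ATH1 arrays, in a yaf9a yaf9b double mutant and in wild type (WT), with 3 arrays from independent biological replicates per genotype. Seedlings of both genotypes were 20 days old, untreated, grown on agar at 22 °C in cycles of 8 h light and 16 h dark, and collected at ZT8, the end of the light period. The labels name no mutant alleles. The study's comparison asks which transcripts differ in plants mutant for YAF9A and YAF9B, which encode subunits shared by a histone acetyltransferase complex (NuA4) and a complex that deposits the histone variant H2A.Z (SWR1).

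Auxin promotes transcription of many GH3 genes within a short time, and the enzymes in turn lower the pool of free auxin. Conjugates with some amino acids can be cleaved again, and others are intermediates of breakdown, so the family acts as a feedback on auxin level. The WES1 enzyme also accepts salicylic acid, a defence hormone, as a substrate. Plants that overexpress WES1 are dwarfed.

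All values are log2 signals, 1 per probe set and array. Array medians lay between 5.99 and 6.06. Pearson's r over probe sets was 0.989 to 0.996 between yaf9a yaf9b arrays, 0.993 to 0.995 between WT arrays and 0.98 to 0.987 between genotypes. The targeted genes YAF9A and YAF9B had 0 named probe sets, so the genotype labels were not checked by them. All 4 measured leaf markers were bright, and 1 of them, the photosystem II antenna gene LHCB4.2, was lower in the mutant (log2 change -0.33, limma adjusted p = 0.0434), while LHCB4.1, PSBW and RCA did not pass. Of 3 measured root markers, the beta-glucosidase gene PYK10 was bright, at 12.15 ± 0.29 in yaf9a yaf9b and 12.29 ± 0.13 in WT (SD, n = 3 arrays each), EXPA18 and EXPA7 were dim, and none passed. In whole seedlings, fewer cells of a type and less RNA per cell cannot be told apart.

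The signals of GH3.3 and WES1 moved in opposite directions. GH3.3 was 5.67-fold lower and WES1 1.46-fold higher in yaf9a yaf9b than in WT. Each passed an adjusted p of 0.05 by a small margin, with the genotypes separate on all arrays. Across all probe sets, 13.1% passed the same threshold, 6.61% lower and 6.52% higher in the mutant, so a call by itself does not set either gene apart from the rest of the array.

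GH3.3 had log2 signals of 5.62, 5.10 and 4.86 on yaf9a yaf9b arrays 1, 2 and 3, against 5.97, 7.91 and 9.21 on WT arrays 1, 2 and 3. WT arrays 2 and 3 were far above the mutant arrays, and WT array 1 was only 0.35 above the highest of them. The means were 5.19 ± 0.389 in yaf9a yaf9b and 7.70 ± 1.63 in WT (SD, n = 3 arrays each). The log2 change of GH3.3 was -2.50 ± 0.69 (SE; limma adjusted p = 0.0498). The 95% interval of the log2 change was -4.09 to -0.92, that is 1.89-fold to 17.0-fold lower. The limma fit used 1 variance per probe set for both genotypes, although the SD of GH3.3 was far larger in WT. An interval with unequal variances was not computed. An exact two-sided permutation test over the arrays gave p = 0.1, the smallest value that 3 arrays against 3 allow.

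**Figure D1:**
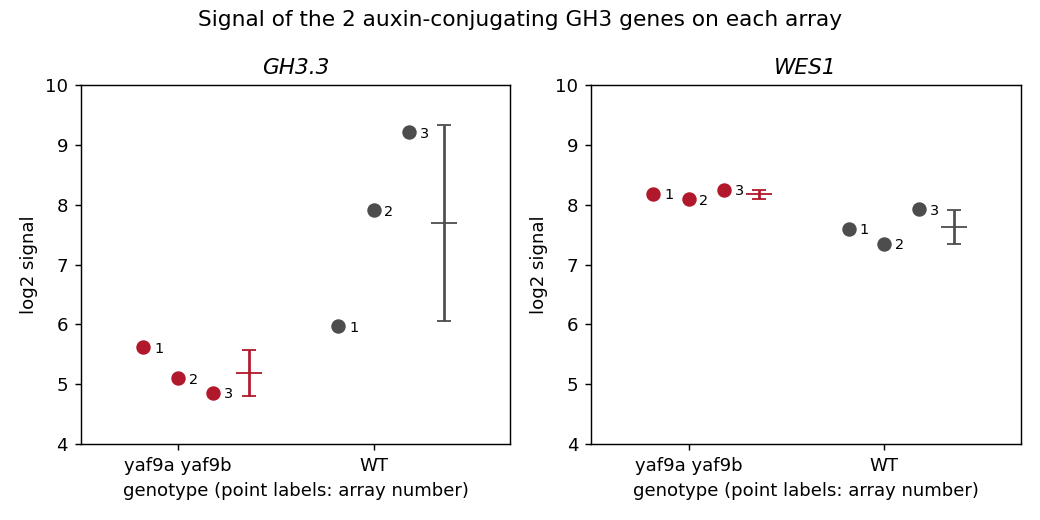
Log2 signal of GH3.3 and WES1 on each array, with points numbered by array and the mean ± SD (n = 3) beside each genotype. For GH3.3, WT array 1 (5.97) lies near the 3 yaf9a yaf9b arrays (4.86 to 5.62), whereas for WES1 all arrays of both genotypes lie between 7.35 and 8.25.

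The size of the GH3.3 difference depended on which WT array was taken. Set against the mutant mean, the mutant was 1.71-fold lower than WT array 1, 6.57-fold lower than WT array 2 and 16.2-fold lower than WT array 3. Each mutant array was 4.22-fold to 7.14-fold below the WT mean. The fold was therefore steadier over the mutant arrays than over the WT arrays. Without WT array 1 the change was 10.3-fold (adjusted p = 0.00556), and without WT array 3 it was 3.36-fold (adjusted p = 0.0848). The call also ended when WT array 2 or any single mutant array was left out (adjusted p 0.0798 to 0.151).

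WES1 had log2 signals of 8.18, 8.09 and 8.25 on yaf9a yaf9b arrays 1, 2 and 3, against 7.60, 7.35 and 7.92 on WT arrays 1, 2 and 3. All mutant arrays lay above all WT arrays, with a gap of 0.17 between the lowest mutant and the highest WT array. The means were 8.17 ± 0.0802 in yaf9a yaf9b and 7.62 ± 0.286 in WT (SD, n = 3 arrays each). The log2 change of WES1 was 0.55 ± 0.14 (SE; limma adjusted p = 0.0414), with a 95% interval of 0.22 to 0.88, that is 1.17-fold to 1.84-fold higher. The exact two-sided permutation test again gave p = 0.1, its lowest possible value. The call ended when any single array other than WT array 3 was left out (adjusted p 0.0865 to 0.104), and without WT array 3 the change was 0.70 (adjusted p = 0.0168).

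Complete separation of the genotypes was common on these arrays. Every mutant array was below every WT array in 15.9% of all probe sets, as for GH3.3, and above every WT array in 15.6%, as for WES1. By size, GH3.3 stood near the edge of the distribution, since 23 of 22746 probe sets, itself included, had a log2 change at least as far below 0. For WES1, 1033 probe sets had a log2 change at least as high.

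Unequal change of both genes was compared within arrays, as the WES1 signal minus the GH3.3 signal. This difference was 2.56, 2.99 and 3.39 on yaf9a yaf9b arrays 1, 2 and 3, against 1.63, -0.56 and -1.29 on WT arrays 1, 2 and 3. That the genotypes are separate here follows from the separation of each gene and is no further evidence. WT array 1 stood nearer to the mutant arrays than to the other WT arrays. The genotype means differed by 3.05 on the log2 scale, 2.98 ± 0.415 in yaf9a yaf9b and -0.07 ± 1.52 in WT (SD, n = 3 arrays each). An exact permutation test of it was void, because the separation of both genes fixed its result. Left-out arrays moved the difference between 2.45 and 3.91. It measures how far the changes diverge and sets neither gene's level against the other's.

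The spread of GH3.3 between WT arrays was among the widest on the array. Its WT SD of 1.63 was reached by 3 probe sets in all, itself included, and the other 2 were the plant defensin genes PDF1.2 (3.05) and PDF1.2b (2.78). The median WT SD over all probe sets was 0.127 and the 95th percentile 0.327. In yaf9a yaf9b the SD of GH3.3 was 0.389, which 803 probe sets (3.53%) reached. WES1 had an SD of 0.0802 in yaf9a yaf9b and 0.286 in WT, and 7.90% of probe sets reached that WT value. With 3 arrays per genotype, no test of the spread itself was made.

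**Figure D2:**
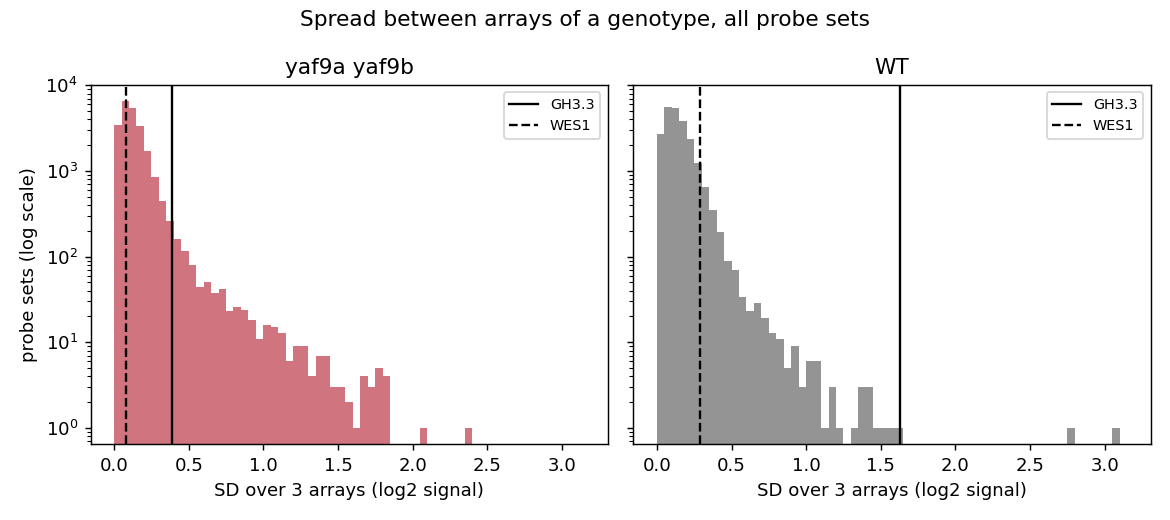
Histograms of the SD over 3 arrays for all 22746 probe sets, yaf9a yaf9b at left and WT at right, with a log count axis and lines at GH3.3 (solid) and WES1 (dashed). GH3.3 lies at the far right of the WT distribution (1.63) and at 0.389 in yaf9a yaf9b.

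A WT SD of at least 1, a limit set after the values were seen and below the SD of GH3.3, was met by 30 probe sets. Of these, 24 (80%) were lowest on WT array 1 and highest on WT array 3, as GH3.3 was. All 24 are readings of the same 3 arrays and do not count as separate observations. The share of this order over all probe sets was not computed, so the 80% has no background to be read against. In yaf9a yaf9b, 12 of the 30 also had an SD of at least 1, where the 95th percentile over all probe sets was 0.331. GH3.3, with 0.389 in yaf9a yaf9b, was not among the 12. Of the 30, 16 could be named. They included the defensin genes PDF1.2 and PDF1.2b, the osmotin gene OSM34 and the chitinase-family gene CHI. The cytochrome P450 gene CYP71B22, the peroxidase gene PRX52 and the jasmonate oxidase gene JRG21 were also among them. Of the 16, 14 had the order of GH3.3. The exceptions were petL (5.88, 5.82 and 4.03 on WT arrays 1, 2 and 3) and AT5G39520 (5.55, 7.49 and 7.41). Because 14 of the 30 had no name, the named genes do not describe the whole set.

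Among the 30 probe sets, 26 had a log2 change below 0. The 30 were picked on WT values that also enter this change, so the count is no separate result. At an adjusted p under 0.05, 5 of the 30 were called, against 13.1% of all probe sets. Of these calls, 4 fell and 1 rose, against 6.61% called lower and 6.52% called higher over all probe sets. The same limit of the picking holds for these calls. Every mutant array was below every WT array in 6 of the 30, near the 15.9% over all probe sets. PDF1.2 had signals of 6.41, 8.35 and 6.64 on yaf9a yaf9b arrays 1, 2 and 3, against 5.31, 10.21 and 10.92 on WT arrays 1, 2 and 3, so its genotypes overlapped. OSM34 had 9.18, 9.15 and 5.98 in yaf9a yaf9b, against 8.17, 10.11 and 10.76 in WT, and overlapped as well. Without WT array 1, as given above, the GH3.3 change was larger.

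The genes whose signals were most like those of GH3.3 were sought among 104 named probe sets with at least 50% of its SD over the 6 arrays. By Pearson correlation over the 6 arrays, a description that includes the genotype difference itself, the closest were CYP71B22 (0.992), PRX52 (0.952), AT5G39520 (0.946), JRG21 (0.942) and AT3G23550 (0.931). CYP71B22 followed GH3.3 closely, with 4.81, 4.40 and 4.38 on yaf9a yaf9b arrays 1, 2 and 3, against 5.69, 7.54 and 8.48 on WT arrays 1, 2 and 3. Its lowest WT array was also WT array 1, and it fell by 2.71 on the log2 scale (limma adjusted p = 0.023). JRG21 fell by 3.73 (adjusted p = 0.00454), with a wider gap of 1.89 between the genotypes. PRX52, AT5G39520 and AT3G23550 missed the threshold, at log2 changes of -1.05, -1.28 and -1.53 (adjusted p 0.182, 0.127 and 0.0511). None of the 5 is on the auxin lists below. Of the other measured genes on those lists, only IAA29 varied enough to enter the search, and it rose. The absence therefore says nothing about whether GH3.3 varies with auxin genes.

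For WES1 the search ran over 5392 named probe sets, and the closest were AT2G31410 (0.996), AT3G53940 (0.992), AT3G49910 (0.987), SE (0.986) and AT5G20290 (0.985). SE encodes SERRATE, which acts in microRNA processing. SE had signals of 6.82, 6.85 and 6.86 on yaf9a yaf9b arrays 1, 2 and 3, against 6.48, 6.37 and 6.66 on WT arrays 1, 2 and 3. In all 5 the mutant arrays lay above the WT arrays and WT array 2 was lowest, as for WES1. The 5 were picked for likeness to WES1 over these same arrays, so this shared order is no separate result. Their log2 changes were 0.30 to 0.39, and none passed (adjusted p 0.0523 to 0.0759).

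**Figure D3:**
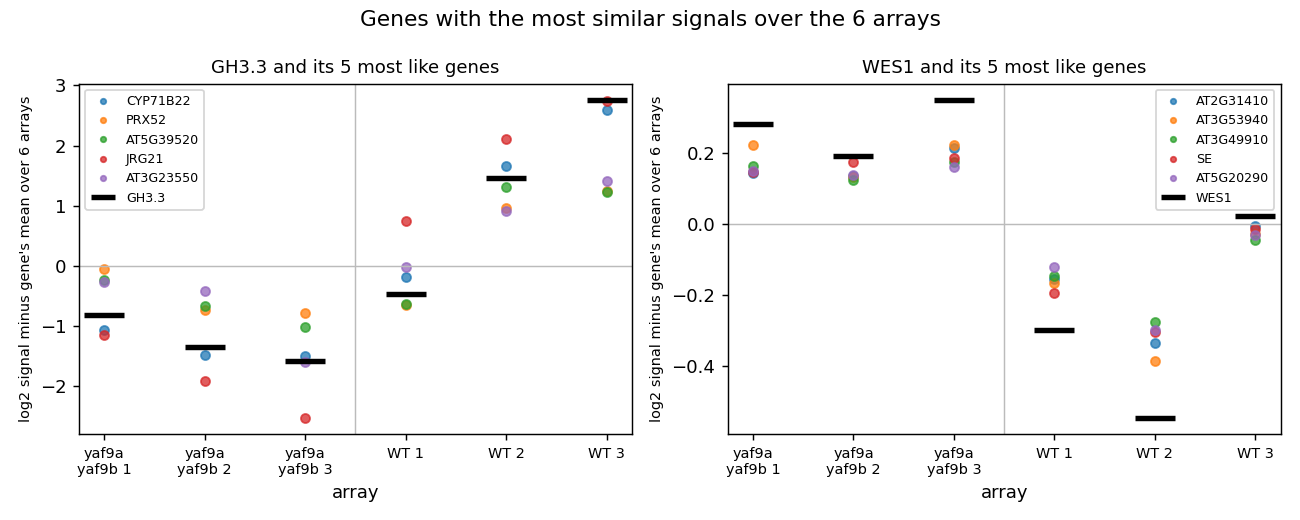
Log2 signal minus each gene's own mean over the 6 arrays, for GH3.3 (left) and WES1 (right, black bars) and the 5 named genes most correlated with each. The genes like GH3.3 lie below their own means on the yaf9a yaf9b arrays and spread over the WT arrays. For PRX52 and AT5G39520 the genotypes overlap, with WT array 1 (3.62 and 5.55) below yaf9a yaf9b array 1 (4.22 and 5.94). Those like WES1 are lowest on WT array 2.

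The other members of the GH3 family gave no further call. Of the 19 loci on the family list, 11 had a named probe set, and of these GH3.3 fell, WES1 rose and 9 did not pass. The 2 calls (18.2% of the 11, against 13.1% of all probe sets) are the members themselves, so the count adds nothing about the family. The 9 had log2 changes from -0.10 to 0.28 with a median of 0.10, against a median of 0.01 over all probe sets. Of the 11, only GH3.3, WES1 and GH3.17 had a mean signal above the 40th percentile of the array (5.09), and the other 8 were dim. DFL1, GH3.2 and JAR1 were among the loci not analysed here.

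GH3.17, which conjugates auxin to glutamate, was the brightest of the 9. It had signals of 7.18, 7.15 and 6.88 on yaf9a yaf9b arrays 1, 2 and 3, against 6.71, 6.74 and 6.91 on WT arrays 1, 2 and 3. Mutant arrays 1 and 2 were above all WT arrays, and mutant array 3 was just below WT array 3. Its log2 change was 0.28 ± 0.11 (SE), with a 95% interval of 0.03 to 0.54 and a limma adjusted p of 0.138. It passed with array quality weights (adjusted p = 0.0408).

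GH3.1 averaged 3.34 ± 0.13 in yaf9a yaf9b and 3.45 ± 0.20 in WT (SD, n = 3 arrays each), with a log2 change of -0.10 and a 95% interval of -0.39 to 0.18. GH3.9 averaged 4.14 ± 0.06 in yaf9a yaf9b and 4.09 ± 0.14 in WT, with a log2 change of 0.04 and an interval of -0.18 to 0.27. These intervals do not reach a change of the size seen for GH3.3. Both probe sets were dim, however, so a fall of that size might not have registered and the intervals do not exclude it. The remaining 6 are listed by locus without a symbol, and among them AT1G48660 had the highest log2 change, 0.28 ± 0.15 (SE; limma adjusted p = 0.275).

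Of the other steps that set auxin level, 8 genes on 2 lists had a named probe set. On the list of auxin oxidation, glycosylation and methylation, 4 of 6 loci were measured and 1 fell. Over all probe sets, 6.61% were called lower, and 4 genes are too few to set against that share. AT1G14130, which has no symbol in the RefSeq table, had signals of 6.14, 5.99 and 6.08 on yaf9a yaf9b arrays 1, 2 and 3, against 6.27, 6.68 and 6.69 on WT arrays 1, 2 and 3. Its genotypes did not overlap, and its log2 change was -0.48 ± 0.13 (SE; limma adjusted p = 0.0457). As for GH3.3, WT array 1 was the WT array nearest to the mutant. For the other called genes of the auxin lists it was WT array 3 (WES1) or WT array 2 (YUC2, IAA29 and HAT2). Among the alternatives, the AT1G14130 call ended after cyclic loess (0.0643), after median centring (0.0528) and without WT array 2 or 3 or any single mutant array (0.0794 to 0.16).

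The neighbouring list entry AT1G14120 had a log2 change of -0.66 ± 0.28 (SE; limma adjusted p = 0.169). Its genotypes did not overlap, with the highest mutant array at 7.28 and the lowest WT array at 7.33. Mutant array 3 was at 6.04, the lowest of the 6 arrays, and without it the log2 change was -0.30. With each array left out in turn, the log2 change ran from -0.92 to -0.30 and never passed (limma adjusted p 0.101 to 0.361). UGT74D1 and UGT84B1, glycosyltransferases that act on auxin, had log2 changes of 0.13 ± 0.10 and 0.09 ± 0.09 and did not pass. Of 7 loci for hydrolases that release auxin from its conjugates, 0 had a named probe set, and they were not analysed here.

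On the auxin synthesis list, 4 of 20 loci were measured, all of the YUCCA flavin monooxygenase family, which makes indole-3-acetic acid from indole-3-pyruvate. YUC2 had signals of 5.61, 5.59 and 5.73 on yaf9a yaf9b arrays 1, 2 and 3, against 5.17, 5.30 and 5.10 on WT arrays 1, 2 and 3. The mutant arrays were all higher, by a gap of 0.29, and YUC2 rose, with a log2 change of 0.45 ± 0.09 (SE; limma adjusted p = 0.0178). Among the fits with 1 array left out, the call ended without WT array 1 (0.0528) and without mutant array 2 (0.0626). YUC4, YUC6 and YUC11 had log2 changes of -0.08, -0.02 and 0.04, and did not pass. With 4 measured genes, the YUC2 call cannot be set against the 6.52% called higher over all probe sets.

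**Figure D4:**
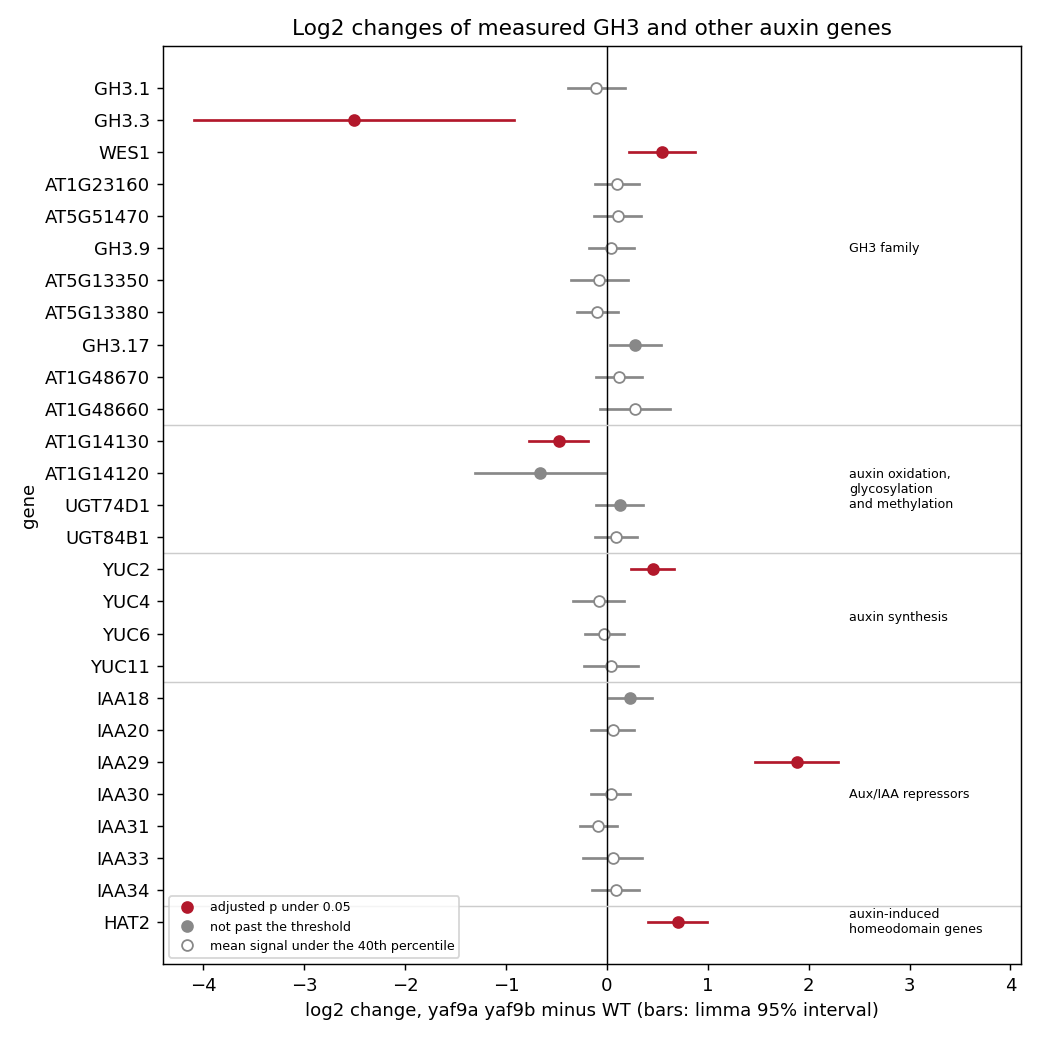
Log2 changes (yaf9a yaf9b minus WT) with limma 95% intervals for the 27 measured genes of the auxin lists, grouped by list, with open points for mean signals under the 40th percentile. GH3.3 (-2.50) and AT1G14130 (-0.48) fell, and IAA29 (1.88), HAT2 (0.70), WES1 (0.55) and YUC2 (0.45) rose.

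Of the measured Aux/IAA and homeodomain genes, further transcripts linked to the auxin response, 2 rose and 0 fell. Over all probe sets, 6.52% were called higher and 6.61% lower, and these lists are too short to set against those shares. Aux/IAA proteins repress auxin response genes, and auxin induces many of their transcripts while marking the proteins for breakdown. Of 29 Aux/IAA genes, 7 were measured. IAA29 rose, with 7.17, 7.42 and 7.81 on yaf9a yaf9b arrays 1, 2 and 3, against 5.33, 5.75 and 5.68 on WT arrays 1, 2 and 3 (log2 change 1.88 ± 0.18 SE, limma adjusted p = 0.00135). None of the other 6 passed, among them IAA18 with a log2 change of 0.23 ± 0.09 (adjusted p = 0.15). HAT2, an auxin-induced homeodomain gene, had 8.13, 8.38 and 8.58 in yaf9a yaf9b, against 7.59, 7.79 and 7.60 in WT, and a log2 change of 0.70 ± 0.13 (SE; adjusted p = 0.0124), so it rose as well. The HAT2 call ended without mutant array 2 (0.0581).

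Counted together, 27 of 200 list entries were measured, of which 4 rose, 2 fell and 21 did not pass, with a median log2 change of 0.06. The 6 calls were 22.2% of the measured genes, against 13.1% of all probe sets, and with so few genes nothing particular to auxin genes follows from the count. The lists of auxin receptors, auxin response factors, auxin transport and SAUR genes had 0 measured members. The WT SD of the 27 genes was 0.113 at the median, and only GH3.3 was above 0.286, the value of WES1. None of the other 26 had a WT spread like that of GH3.3.

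**Figure D5:**
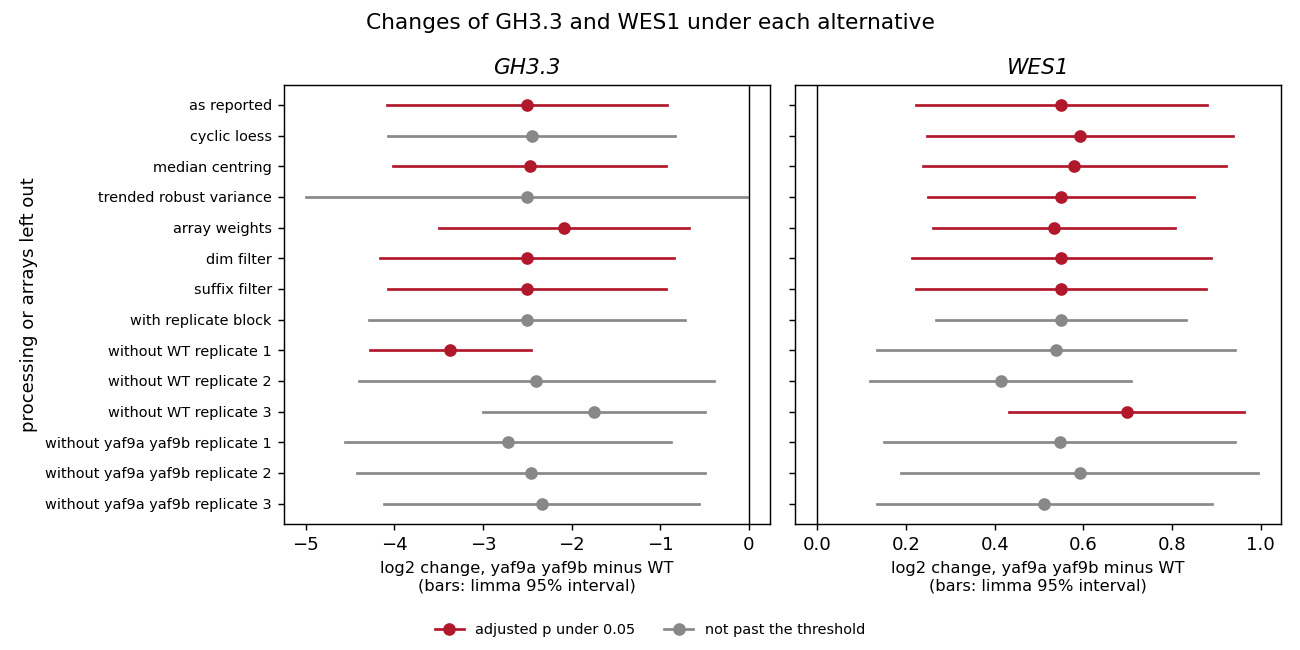
Log2 changes of GH3.3 (left) and WES1 (right) with limma 95% intervals, as reported and under each alternative, in red where the adjusted p was under 0.05. The change of GH3.3 stays between -3.37 and -1.75 and that of WES1 between 0.41 and 0.70, while many alternatives end the call.

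The precision of the GH3.3 call rested on the pooled variance model. Its own residual SD over the arrays was 1.19, and limma, which draws each probe set's variance toward that of the rest, used 0.84. With a trended and robust variance model, the SD used was 1.13, the 95% interval was -4.99 to -0.02 and the adjusted p was 0.179. For WES1 the residual SD was 0.21, the SD used was 0.17, and the trended and robust model gave an adjusted p of 0.024.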

How the data were processed

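The authors deposited 1 log2 signal per probe set and array, made with RMA and affy per the submitters' processing notes. Versions, genome build and scan batches: not given in the sources used here. Because RMA equalises the distributions of arrays, a shift of most transcripts would not appear. Per the labels, each sample held about 250 mg of seedlings, and 500 ng of RNA was labelled. For arrays, their number limits the precision.

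The 64 control probe sets of 22810 were left out. Each of the 22746 others was fitted with limma 3.58.1 in R 4.3.3 (lmFit, eBayes, two-sided, yaf9a yaf9b minus WT, p-values adjusted over all of them by Benjamini-Hochberg, threshold 0.05). The code was tested on simulated data. Exact permutation tests used SciPy 1.17.1. Names came from GEO's platform annotation (13513 probe sets with 1 gene, 503 with several, 8730 with none) and the RefSeq table of assembly TAIR10.1, which 13436 matched. Lists used the probe set with the highest mean signal per gene.

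The members and lists were chosen with earlier results of these data known. Named were both members, up to 6 measured genes per list (those past the threshold first) and the 5 genes most correlated with each member. The genes with a WT SD of at least 1 were picked with their values in view. The alternatives tried were cyclic loess, median centring, a trended robust variance model, array weights, filters on dim probe sets (40th percentile) and on the suffixes _s_at and _x_at, the replicate number as a block, and leaving out each array. Same-numbered arrays of the genotypes had deviations that correlated at -0.21, 0.01 and -0.32, so the numbers were not taken to pair arrays.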

Additional observations from a re-analysis of the deposited data

How the results depend on the processing

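No direction of GH3.3 or WES1 reversed in any of the 13 alternatives. The GH3.3 call ended in 8 of them: after cyclic loess (log2 change -2.45, limma adjusted p = 0.0578), with the trended robust variance model (-2.50, adjusted p = 0.179), with the replicate block (-2.50, adjusted p = 0.107) and without each array other than WT array 1 (values -3.37 to -1.75 over all 6 arrays left out). The WES1 call ended in 6: with the replicate block (0.55, adjusted p = 0.055) and without each array other than WT array 3 (0.41 to 0.70 over all 6). The difference between the genes, computed under 8 of the alternatives, stayed within 2.45 to 3.91. Of the 6 auxin list calls (4 higher, 2 lower), 0 were lower after cyclic loess, where 4 were higher, 1 was lower after median centring and 1 with the trended robust model. The replicate block left 2 calls, 2 higher and 0 lower, ending also those of AT1G14130 (adjusted p = 0.109) and YUC2 (0.0701), and leaving out 1 array left 1 to 4 calls, 1 to 4 higher and 0 to 2 lower, the fewest without mutant array 2. Over all probe sets the 2985 calls (1482 higher, 1503 lower) became 1233 with the replicate block (693 higher, 540 lower) and 963 to 2684 without 1 array (557 to 1401 higher, 406 to 1283 lower), where fewer arrays were fitted. With array weights 2298 were lower, and the cause was not tested. In their deviations from the genotype means, arrays did not correlate best within their own replicate number.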
